A study of Mus musculus with 6 samples.

Results

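Ribosome biogenesis and nucleolar genes were examined as a set of 36 genes, chosen by symbol and all found among the 18124 genes of the count table. They encode the small nucleolar ribonucleoproteins (snoRNPs) that modify ribosomal RNA, subunits of RNA polymerase I, and assembly factors of both ribosomal subunits. All 36 passed the filter on low counts, with at least 128 estimated counts in every library. The RNA came from mesenchymal stem cells of mouse quadriceps muscle, sorted as live cells with collagen 1-driven green fluorescent protein (Col1-GFP genotype) and surface Sca-1. The design text names 6 naive male mice as their source, gives no age and does not say whether their cells were pooled. At passage 4 the cells spent 72 hours in conditioned medium, renewed daily. For the senescent-medium group (3 libraries), wild-type bone marrow-derived macrophages had received 300 µM hydrogen peroxide for 3 hours, again after 3 days, and a further 14 days of culture. For the control-medium group (3 libraries) the macrophages were non-senescent, and how long they were kept is not stated. Each kind of medium was pooled from 2 collections. The cells of both groups are Col1-GFP and share all other handling that the labels describe. The cells were expanded in culture after the sort, and separate isolates or batches of medium are not stated for the 3 libraries of a medium. A p-value here thus reflects only library-to-library spread, possibly of technical origin.

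Ribosomes are made in the nucleolus, where RNA polymerase I transcribes a long precursor that is cut, methylated and pseudouridylated while ribosomal proteins assemble on it. Guide RNAs in box C/D and box H/ACA snoRNPs direct the modifications, the small subunit processome releases the small subunit precursor, and further factors build the large subunit. Dividing cells need many new ribosomes, and the transcription factor MYC is known to drive many of these genes.

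The libraries held 19420700 to 21659400 estimated counts in senescent medium and 17228200 to 21225800 in control medium. Values below are CPM, counts corrected for depth with library sizes scaled by TMM (trimmed mean of M values). Col1a1 averaged 7516 ± 229 CPM in senescent medium and 5361 ± 69.8 CPM in control medium, and Ly6a, the gene of Sca-1, 1235 ± 46.8 and 1206 ± 44.7 CPM in the same order (SD, n = 3 each). Col1a1 rose (log2 fold change 0.49, adjusted p = 1.27e-13, edgeR). Of 9 markers of the sorted stromal cells, 8 were tested. At an adjusted p under 0.05, 6 were higher (75.0%, against 24.6% of all tested genes). By the same measure 1 was lower (12.5%, against 24.9%), with a log2 fold change of −0.289, and Ly6a was not called. Markers of other cell types were low. The 4 of 11 macrophage markers with a value summed to 15.0 to 20.1 CPM in senescent medium and 11.9 to 14.3 CPM in control medium. They did not move together: Lyz2 rose (log2 fold change 0.80), Csf1r fell (−0.53, adjusted p = 0.0248, edgeR) and Cd68 missed an adjusted p of 0.05 (0.53, adjusted p = 0.185, edgeR). The Csf1r call was lost with DESeq2 (adjusted p = 0.0699), without senescent-medium replicate 2 or 3 (0.0957 and 0.122) and without control-medium replicate 1 or 2 (0.135 and 0.0811). The 3 of 5 endothelial markers with a value summed to 25.7 to 32.5 CPM in senescent medium and 23.5 to 26.0 CPM in control medium. The 2 of 7 muscle cell markers with a value, Des and Acta1, summed to 17.5 to 19.8 CPM in senescent medium and 9.41 to 11.1 CPM in control medium. The part of these markers in the results below was not tested.

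Ribosome biogenesis genes changed little in senescent macrophage medium, and in both directions. The 13 that fell included the catalytic RNA polymerase I genes Polr1a and Polr1b, the processome scaffold genes Heatr1 and Utp20, and the pseudouridine synthase gene Dkc1. The 4 that rose were Nhp2, Gnl3, Npm1 and Ncl. The other 19 did not pass the threshold, an adjusted p of 0.05 in edgeR's quasi-likelihood test. The largest fall was 1.32-fold (Heatr1) and the largest rise 1.29-fold (Nhp2). None of the 36 changed by 1.5-fold or more, against 13.7% of all tested genes that passed the threshold and did. The 95% intervals of all 36 log2 fold changes lay between −0.59 and 0.52.

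The share of members called was close to that of all genes. Of the 36, 17 passed the threshold (47.2%), where 49.5% of the 14644 tested genes did. By direction, 36.1% of the members were lower, against 24.9% of all genes, and 11.1% were higher, against 24.6%. The median log2 fold change of the members was −0.088, and that of all genes −0.001. The median absolute log2 fold change was 0.154 for the members and 0.229 for all genes. Members and all genes were not matched for level, here or for the share changed by 1.5-fold. With libraries scaled by their totals alone, 2 members were higher and 18 lower, while 2589 of all genes were higher and 4813 lower. That scaling moved the median of all genes by −0.081, about the size of the members' own median. With a trend on coding length removed, 5 were higher and 12 lower, and the median was −0.030.

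**Figure D1:**
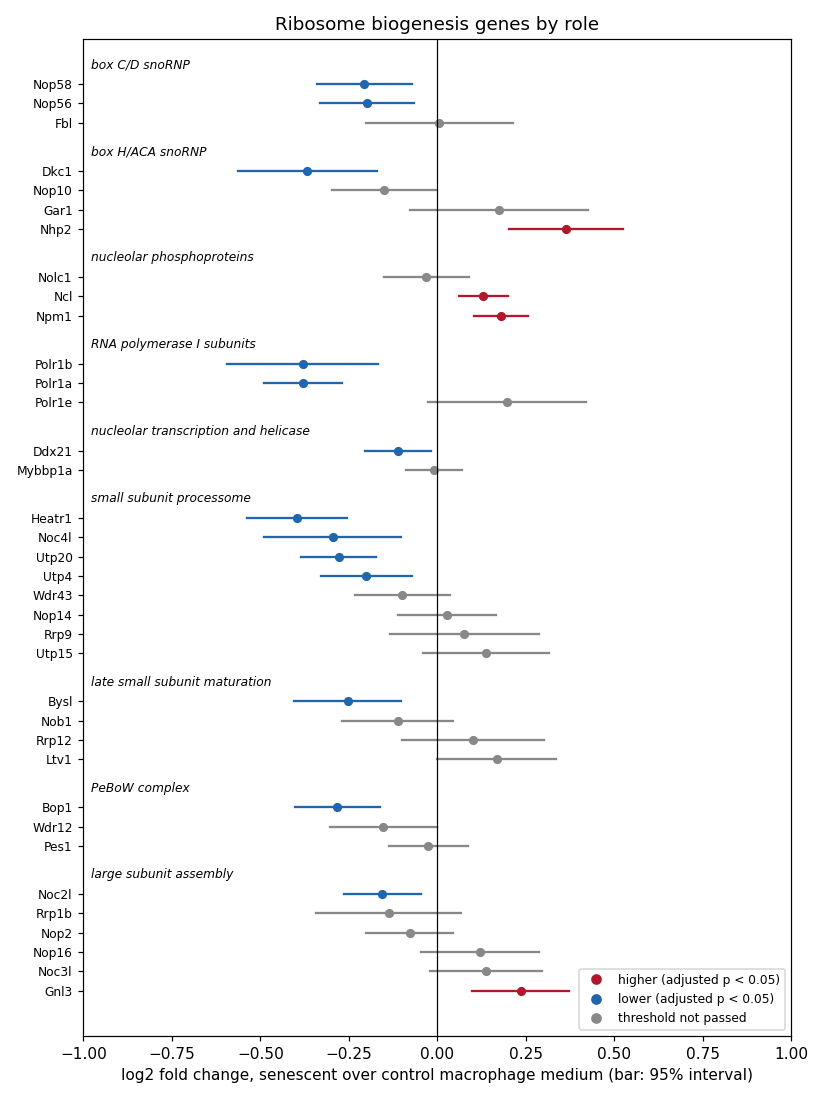
Log2 fold changes (senescent over control medium) of the 36 genes on the x axis, grouped by role, with 95% intervals as bars. The 13 lower genes (blue) reach −0.40, the 4 higher genes (red) reach 0.36, and the other 19 (grey) did not pass the threshold.

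The libraries of the 2 media did not overlap for 21 of the 36 genes, 6 higher and 15 lower in senescent medium. Such separation was found for 55.8% of all genes, 27.8% higher and 28.0% lower. Relative to the mean of the control-medium libraries, the members' median log2 level was −0.061, −0.095 and −0.072 in senescent-medium replicates 1, 2 and 3, against 0.003, −0.010 and 0.003 in control-medium replicates 1, 2 and 3. The number of members below the control mean was 24, 22 and 21 in the senescent-medium libraries, against 15, 21 and 17 in the control-medium libraries, so that senescent-medium replicate 3 and control-medium replicate 2 had the same count. The 36 genes together summed to 1520 to 1570 CPM in senescent medium and 1570 to 1590 CPM in control medium. The largest terms of this sum were Ncl and Npm1, which rose, while 13 members fell. Ncl averaged 339 CPM in senescent medium and 310 in control medium, and Npm1 161 and 142. The sum thus says little about a typical member. In bulk RNA, fewer cells of a type and less RNA per cell cannot be told apart.

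**Figure D2:**
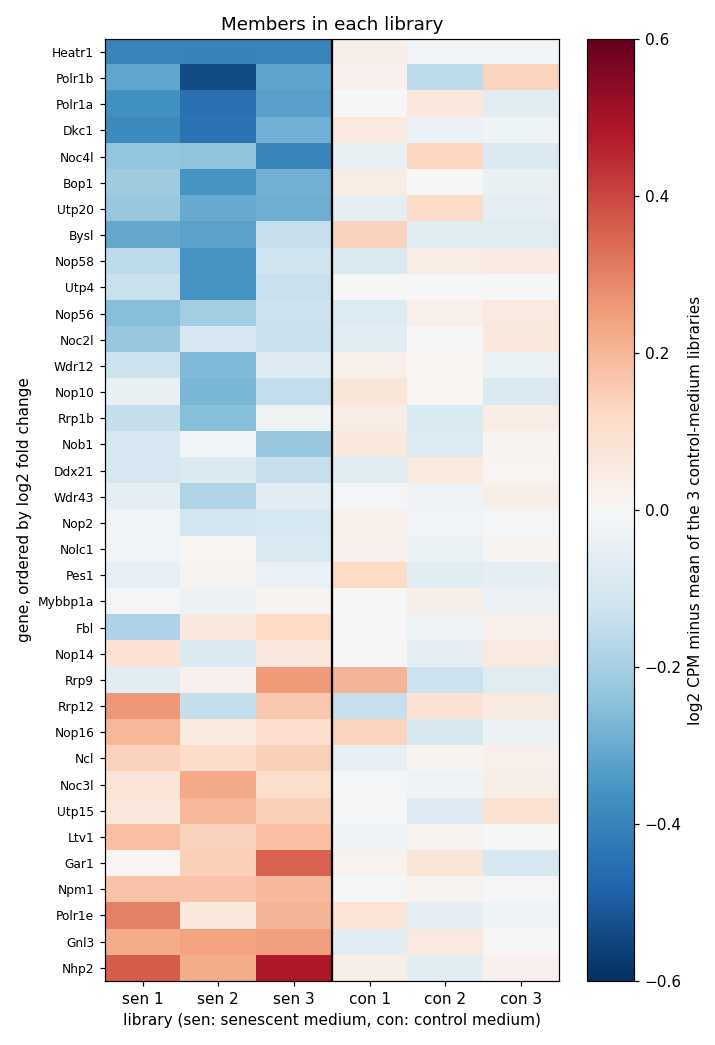
Level of each of the 36 genes (rows, ordered by log2 fold change) in each of the 6 libraries (columns), as log2 CPM minus the mean of the control-medium libraries. The senescent-medium columns are blue at the top, led by Heatr1, and red at the bottom, led by Nhp2, and the control-medium columns lie nearer to 0 (white).

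RNA polymerase I makes the ribosomal RNA precursor, and its 2 catalytic subunit genes fell together. Polr1a (ENSMUSG00000049553, chromosome 6), the largest subunit, had 46.3, 43.7 and 47.5 CPM in senescent medium, against 59.7, 62.2 and 56.9 CPM in control medium. All 3 senescent-medium libraries were lower than every control-medium library, and the log2 fold change was −0.38 ± 0.054 (SE, here and below; adjusted p = 6.97e-07, edgeR). This was the smallest adjusted p of the set. Polr1b (chromosome 2), which forms the active centre with Polr1a, had 10.9, 9.38 and 10.9 CPM in senescent medium, against 13.8, 12.2 and 14.9 CPM in control medium. Its groups did not overlap either, and its log2 fold change was −0.38 ± 0.10 (adjusted p = 0.00302, edgeR). The peripheral subunit gene Polr1e did not follow them. It averaged 10.6 ± 0.868 CPM in senescent medium and 9.27 ± 0.472 CPM in control medium (SD, n = 3 each), with overlapping libraries and an adjusted p of 0.138 (edgeR).

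Ddx21, an RNA helicase that links polymerase I transcription with snoRNP function, had 80.6, 81.5 and 78.5 CPM in senescent medium, against 82.3, 90.0 and 87.1 CPM in control medium. Its fall of 0.11 ± 0.046 on the log2 scale passed the threshold narrowly (adjusted p = 0.0456, edgeR), and Nop10, at 0.0829, was the nearest member on the other side. The call for Ddx21 was lost with DESeq2 (adjusted p = 0.107), limma-voom (0.0513), upper quartile scaling (0.101), no filter (0.0622) or the coding length trend removed (0.431). It was also lost without senescent-medium replicate 1, 2 or 3 (0.0847, 0.0736 and 0.153) and without control-medium replicate 2 or 3 (0.213 and 0.0987). Mybbp1a, a nucleolar regulator of ribosomal RNA synthesis, averaged 129 ± 2.40 CPM in senescent medium and 129 ± 3.25 CPM in control medium (SD, n = 3 each). The 95% interval of its log2 fold change was −0.09 to 0.07.

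Of the 3 box C/D snoRNP proteins, which carry out methylation of ribosomal RNA, the scaffold genes Nop56 and Nop58 fell and the methyltransferase gene Fbl did not pass the threshold. Nop56 (chromosome 2) had 28.7, 29.6 and 31.3 CPM in senescent medium, against 32.3, 34.9 and 35.5 CPM in control medium. Nop58 (chromosome 1) had 35.7, 31.2 and 36.6 CPM in senescent medium, against 37.4, 41.1 and 41.2 CPM in control medium. Both genes were lower in every senescent-medium library, by nearly the same amount, with log2 fold changes of −0.20 ± 0.065 and −0.21 ± 0.066 (adjusted p = 0.0114 and 0.00949, edgeR). The Nop56 call was lost without senescent-medium replicate 1 (adjusted p = 0.0628) or control-medium replicate 3 (0.0532), and the Nop58 call without senescent-medium replicate 2 (0.104) or control-medium replicate 2 (0.0516). Fbl had 10.5, 12.5 and 13.0 CPM in senescent medium, against 11.9, 11.7 and 12.2 CPM in control medium, with overlapping groups, and the 95% interval of its log2 fold change was −0.20 to 0.21.

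The 4 box H/ACA proteins form 1 particle that converts uridine to pseudouridine, and of their genes Dkc1 fell, Nhp2 rose, and Nop10 and Gar1 did not pass the threshold. Dkc1 (ENSMUSG00000031403, chromosome X), the pseudouridine synthase that is mutated in human dyskeratosis congenita, had 10.8, 10.3 and 11.5 CPM in senescent medium, against 14.7, 13.7 and 13.8 CPM in control medium. Nhp2 (ENSMUSG00000001056, chromosome 11), an RNA-binding protein of the same core, had 25.0, 22.6 and 27.1 CPM in senescent medium, against 19.9, 18.6 and 19.8 CPM in control medium. Neither gene had overlapping groups, and they moved in opposite directions by similar amounts. The log2 fold change was −0.37 ± 0.096 for Dkc1 and 0.36 ± 0.079 for Nhp2 (adjusted p = 0.00202 and 0.000298, edgeR). The ratio of Nhp2 to Dkc1 CPM was 2.32, 2.19 and 2.35 in senescent medium, against 1.36, 1.35 and 1.43 in control medium. With both genes apart in opposite directions, their ratio had to separate as well. Nop10 averaged 26.3 ± 2.09 CPM in senescent medium and 29.2 ± 1.64 CPM in control medium (adjusted p = 0.0829, edgeR), and Gar1 8.72 ± 1.05 and 7.72 ± 0.470 CPM in the same order (0.249; SD, n = 3 each). Nop10 passed the threshold as lower with library totals (adjusted p = 0.00888), without senescent-medium replicate 1 (0.0353) or control-medium replicate 3 (0.0480), and with the coding length trend removed (0.00069).

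Of the 3 nucleolar phosphoprotein genes, Npm1 and Ncl rose and Nolc1 did not pass the threshold. Npm1 (ENSMUSG00000057113, chromosome 11), nucleophosmin, a chaperone and export factor of ribosomal particles, had 160.1, 160.1 and 163 CPM in senescent medium, against 141, 144 and 141 CPM in control medium. Ncl (chromosome 1), nucleolin, which binds nascent ribosomal RNA, had 341, 335 and 342 CPM in senescent medium, against 300.0, 314 and 317 CPM in control medium. Every senescent-medium library exceeded every control-medium library for both genes, with tight replicates. Their log2 fold changes were 0.18 ± 0.037 and 0.13 ± 0.034 (adjusted p = 0.000174 and 0.00210, edgeR). With library totals the Ncl call was lost (log2 fold change 0.049, adjusted p = 0.245) and the Npm1 call held. Nolc1, a chaperone of snoRNPs, averaged 37.9 ± 1.41 CPM in senescent medium and 38.8 ± 0.942 CPM in control medium (adjusted p = 0.686, edgeR; SD, n = 3 each).

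The small subunit processome cuts and folds the small subunit precursor, and 4 of its 8 genes in the set fell while 0 rose. Of all tested genes 24.9% fell and 24.6% rose, so the share called in either direction was about the same. Heatr1 (ENSMUSG00000050244, chromosome 13), known in yeast as Utp10, had 21.6 CPM in each of the 3 senescent-medium libraries, against 29.2, 28.2 and 28.2 CPM in control medium. Its log2 fold change of −0.40 ± 0.069 (adjusted p = 1.60e-05, edgeR) was the lowest of all 36 genes. Utp20 (chromosome 10), a very large scaffold protein, had 64.0, 60.7 and 61.2 CPM in senescent medium, against 72.0, 81.2 and 71.9 CPM in control medium. Those groups did not overlap, and the fitted change was −0.28 ± 0.052 on the log2 scale (adjusted p = 4.01e-05, edgeR).

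Noc4l, a partner of Nop14 in yeast, had 12.8, 12.8 and 11.5 CPM in senescent medium, against 14.7, 16.5 and 14.2 CPM in control medium (−0.30 ± 0.095, adjusted p = 0.0105, edgeR). Utp4, a WD-repeat protein of the earliest processome module, had 37.3, 31.9 and 37.2 CPM in senescent medium, against 40.9, 40.7 and 40.9 CPM in control medium (−0.20 ± 0.063, adjusted p = 0.00894, edgeR). Both genes were lower in all 3 senescent-medium libraries, but each call was lost when certain single libraries were left out. Noc4l missed the threshold without senescent-medium replicate 3 (adjusted p = 0.0649) or control-medium replicate 2 (0.0902), and Utp4 without senescent-medium replicate 2 (log2 fold change −0.131, adjusted p = 0.106). The other 4 processome genes did not pass it. Rrp9, Utp15 and Nop14 had log2 fold changes of 0.08 ± 0.10, 0.14 ± 0.087 and 0.03 ± 0.067, all with overlapping libraries. Wdr43 had −0.10 ± 0.065, with lower values in all 3 senescent-medium libraries.

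Of the 4 genes of late small subunit maturation, only Bysl passed the threshold in the fit with TMM scaling. Bysl (chromosome 17), known in yeast as Enp1, had 23.9, 23.7 and 26.9 CPM in senescent medium, against 32.6, 28.3 and 28.2 CPM in control medium (−0.25 ± 0.074, adjusted p = 0.00528, edgeR). Its groups did not overlap. In the annotation 9.37% of its exon length is overlapped on the opposite strand by Ccnd3, a more abundant gene that fell as well (−0.22 ± 0.040), and strand use in counting is not given. Ltv1, a factor of small subunit assembly, had 18.0, 17.4 and 17.9 CPM in senescent medium, against 15.6, 16.0 and 15.9 CPM in control medium. Its groups were apart, but at a log2 fold change of 0.17 ± 0.082 the adjusted p was 0.0944 (edgeR). Nob1, the endonuclease of the last cut in small subunit RNA, had −0.11 ± 0.077 (adjusted p = 0.0379 with library totals), and Rrp12, an export factor of these particles in yeast, 0.10 ± 0.098.

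Bop1, Pes1 and Wdr12 form the PeBoW complex, which is needed for processing of large subunit RNA. Bop1 (chromosome 15) had 37.8, 34.3 and 35.9 CPM in senescent medium, against 45.2, 43.8 and 42.5 CPM in control medium. All senescent-medium libraries were lower, at −0.28 ± 0.059 on the log2 scale (adjusted p = 0.000182, edgeR). Pes1 averaged 55.9 ± 1.43 CPM in senescent medium and 57.0 ± 4.09 CPM in control medium, with overlapping libraries and an interval of −0.14 to 0.09 for its log2 fold change. Wdr12 had 22.6, 20.5 and 23.4 CPM in senescent medium, against 25.2, 24.8 and 24.0 CPM in control medium. Its groups were apart, but its log2 fold change of −0.15 ± 0.074 missed the threshold (adjusted p = 0.0871, edgeR) and passed it with library totals (0.0110). The ratio of Pes1 to Bop1 CPM was 1.45, 1.68 and 1.54 in senescent medium, against 1.36, 1.25 and 1.29 in control medium. It mainly restates the fall of Bop1, as the mean of Pes1 changed little.

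Among the 6 other large subunit assembly genes, Gnl3 rose and Noc2l fell. Gnl3 (ENSMUSG00000042354, chromosome 14), nucleostemin, a nucleolar GTPase known from stem cells and dividing cells, had 29.7, 30.1 and 30.3 CPM in senescent medium, against 24.4, 26.5 and 25.5 CPM in control medium. The groups were apart, and the log2 fold change was 0.24 ± 0.067 (adjusted p = 0.00418, edgeR; 0.0581 with library totals). Noc2l had 50.2, 54.8 and 53.7 CPM in senescent medium, against 56.3, 58.8 and 61.4 CPM in control medium (−0.16 ± 0.053, adjusted p = 0.0157, edgeR). That call was lost without senescent-medium replicate 1 (adjusted p = 0.112) or control-medium replicate 3 (0.0878), and with the coding length trend removed (0.117). Samd11 overlaps 20.9% of the Noc2l exon length on the opposite strand but averaged only 0.516 CPM in senescent medium and 0.444 CPM in control medium. Nop2, an RNA methyltransferase, and Rrp1b had log2 fold changes of −0.08 ± 0.060 and −0.14 ± 0.10, and Nop16 and Noc3l 0.12 ± 0.082 and 0.14 ± 0.077, none past the threshold. Noc3l was higher in all 3 senescent-medium libraries (adjusted p = 0.142, edgeR), and passed the threshold with the coding length trend removed (0.0225). Nop2 passed it as lower with library totals (0.0289), as did Wdr43 (0.0253).

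Levels of the genes differed far more than their response. Per kilobase of coding sequence, Npm1 averaged 184 CPM in senescent medium and 162 CPM in control medium, Nop10 137 and 152 CPM, and Ncl 160.0 and 146 CPM in the same order. These were the highest of the set. Nhp2 followed at 54.3 CPM per kilobase in senescent medium and 42.3 in control medium. At the other end were Polr1b, with 3.06 CPM per kilobase in senescent medium and 4.00 in control medium, Rrp12 with 4.29 and 4.01, and Heatr1 with 3.37 and 4.44 in the same order. Within the H/ACA particle, Dkc1 stood at 7.13 CPM per kilobase in senescent medium and 9.22 in control medium, below Nhp2, Nop10 and Gar1 (12.6 and 11.1). These levels leave out untranslated regions, whose length was not used, so neighbours in the order need not differ.

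**Figure D3:**
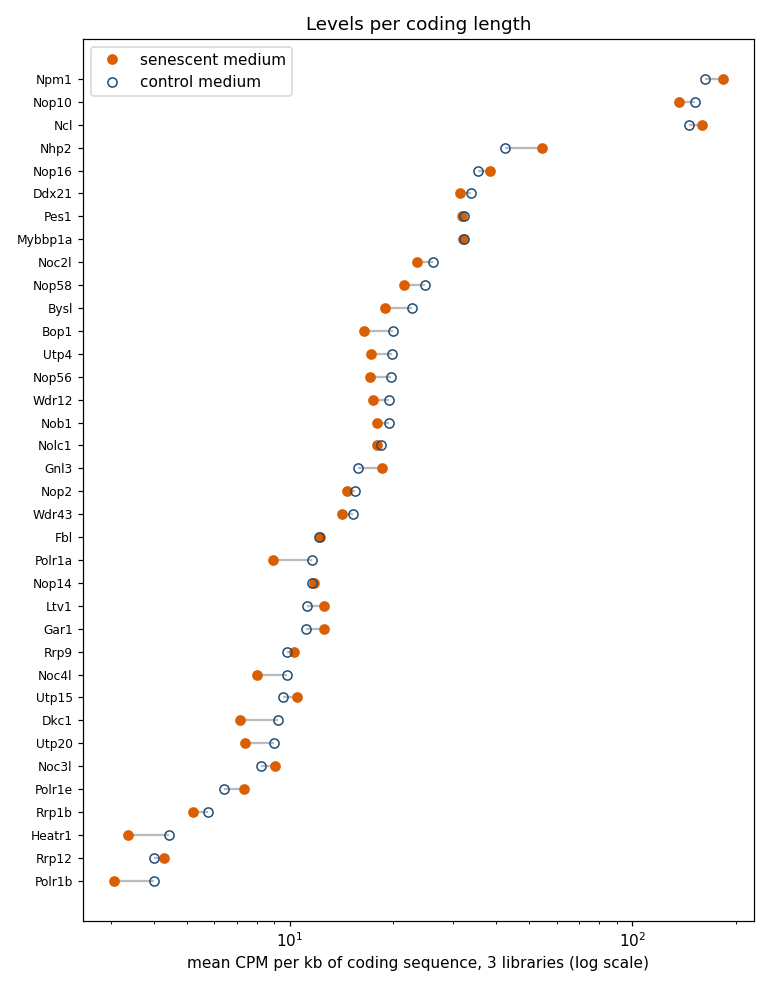
Mean CPM per kilobase of coding sequence (x axis, log scale) of the 36 genes in senescent medium (filled) and control medium (open), 3 libraries each, ordered by the control-medium level. The points of a gene lie close together, while the genes run from Polr1b (3.06 in senescent medium, 4.00 in control medium) to Npm1 (184 in senescent medium, 162 in control medium).

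Other genes of the pathway also changed little and in both directions. Of 117 further ribosome biogenesis genes tested, from a list of 118, 33 fell (28.2%) and 13 rose (11.1%), against 24.9% and 24.6% of all tested genes. Their median log2 fold change was −0.039. None of them changed by 1.5-fold. With library totals 50 fell and 10 rose, under a scaling that called 4813 of all genes lower and 2589 higher. The largest falls were those of Mak16, a large subunit factor (−0.45 ± 0.062), Tcof1, which encodes the polymerase I cofactor treacle (−0.43 ± 0.058), the giant ATPase gene Mdn1 (−0.40 ± 0.062) and Senp3, a nucleolar SUMO protease (−0.40 ± 0.048). The largest rises were those of Aatf (0.46 ± 0.10), the processome gene Imp4 (0.43 ± 0.065), the kinase gene Riok3 (0.40 ± 0.042) and Tsr3 (0.37 ± 0.10). Of the 12 tested host genes of snoRNAs, from a list of 15, Snhg12, Snhg18, Snhg20 and Zfas1 rose and Snhg15 fell. These shares were 33.3% and 8.33%, against 24.6% and 24.9% of all tested genes. The median over the 12 was 0.225 on the log2 scale. Some members overlap snoRNA genes as well. In the annotation Snora75 overlaps exons of Ncl, and Snord69 those of Gnl3, on the same strand, and both members rose. Nop56 and Nop58, overlapped on the same strand by Gm24451 and Gm26293, fell.

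The cell cycle genes set beside them moved one way and much further. All 30 S phase genes and all 30 G2 and M phase genes fell, against 24.9% of all tested genes. Their median log2 fold changes were −0.89 and −1.44 in that order. These lists, like the members, were chosen with earlier results of these data known. Mki67, the proliferation marker, averaged 38.9 ± 3.66 CPM in senescent medium and 106 ± 7.16 CPM in control medium, and Mcm4, a subunit of the replicative helicase, 27.0 ± 1.15 and 56.4 ± 1.39 CPM in the same order (SD, n = 3 each). The log2 fold change of 57 of these 60 genes was below that of Heatr1, the lowest member. The exceptions were Pcna, Rrm2 and Slbp, at −0.37, −0.35 and −0.24. At the medians, expression was 1.85-fold lower for S phase and 2.70-fold lower for G2 and M phase genes, and 1.06-fold lower for the ribosome biogenesis members. The difference between the lists was not put to a test.

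**Figure D4:**
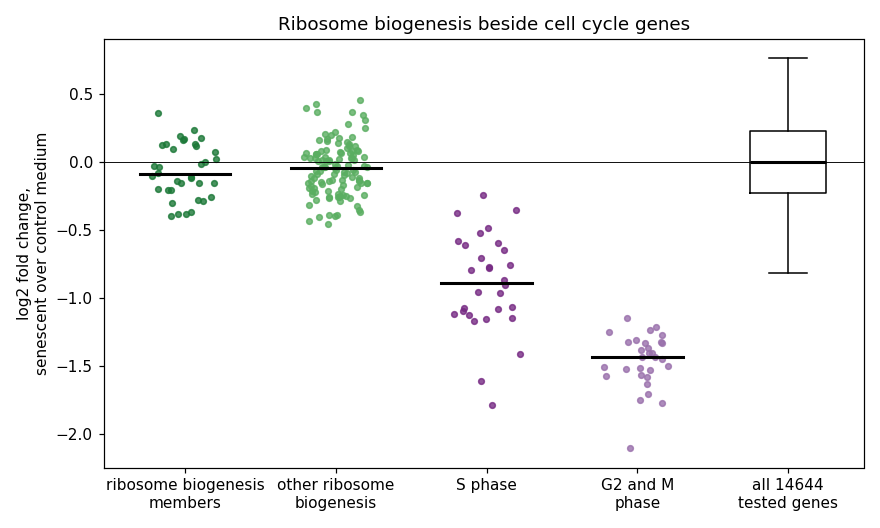
Log2 fold change (senescent over control medium, y axis) of each gene in 4 lists (points, with the median as a line) and of all 14644 tested genes (box: quartiles, whiskers: 5th to 95th percentile). The 36 ribosome biogenesis members and the 117 other pathway genes straddle 0, while the S phase and G2 and M phase genes all lie below it.

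MYC and its partners were looked at as known regulators of these genes, and they moved both ways. Myc had 42.0, 37.4 and 37.1 CPM in senescent medium, against 30.5, 29.5 and 31.3 CPM in control medium. Its groups did not overlap and it rose by 0.35 ± 0.064 on the log2 scale (adjusted p = 3.00e-05, edgeR). Mnt and Mxd4, which bind the same partner Max and repress transcription, rose as well (0.52 ± 0.056 and 0.33 ± 0.037). Mxd3, a family member known from proliferating cells, fell (−1.33 ± 0.17), and Max fell slightly (−0.13 ± 0.046, adjusted p = 0.0165, edgeR), a call lost without senescent-medium replicate 1 (0.0540) or control-medium replicate 1 (0.0668). The other 6 genes of this list (Mycn, Mycl, Mxi1, Mxd1, Mlx and Mga) did not pass the threshold, and Mycn and Mycl stood near or below 1 CPM on average. Of the 11 genes 27.3% were higher and 18.2% lower, against 24.6% and 24.9% of all tested genes. The share called was 45.5%, near the 49.5% of all tested genes.

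MYC and Max bind the E-box, the 6 letters CACGTG, which read the same on both strands. Promoter windows of 300 bases (250 before to 50 after the start) were taken from RefSeq on build GRCm38.p6 for 32 of the 36 members; Bop1, Fbl, Npm1 and Rrp12 are named only. An E-box stood in the windows of 7 of the 32 members (21.9%), against 8.09% of the 27025 genes with a window and 11.8% of the 10300 such genes that were tested. In 6 of the 7 it lay in the 50 bases after the start, a place where 1.92% of the tested genes with a window had it, against 18.8% of the members. In the 250 bases before the start it went the other way, with 1 of 32 members (3.12%) against 9.95% of the tested genes. The 32 members had 36 windows, and a gene was counted if any of its windows held the motif. The sequences of all 7 are shown because 6 lay after the start. They have 12 bases on either side where the window allows and the E-box in capitals.

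Ltv1 (chr10:13193092-13193121, minus strand): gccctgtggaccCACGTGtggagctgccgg
Mybbp1a (chr11:72441355-72441376, plus strand): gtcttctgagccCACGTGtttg
Nop2 (chr6:125131811-125131840, plus strand): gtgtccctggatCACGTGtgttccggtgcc
Pes1 (chr11:3963965-3963994, plus strand): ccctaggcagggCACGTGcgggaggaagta
Utp20 (chr10:88826765-88826789, minus strand): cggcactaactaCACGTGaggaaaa
Utp4 (chr8:106893643-106893672, plus strand): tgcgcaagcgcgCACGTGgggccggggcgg
Wdr43 (chr17:71616220-71616249, plus strand): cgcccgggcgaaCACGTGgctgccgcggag

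Counted from the start, the first base of the E-box was base 3 in Pes1, 16 in Utp4, 18 in Wdr43, 29 in Ltv1, 38 in Utp20 and 41 in Mybbp1a, and in Nop2 it lay 60 bases before the start. Of these 7 genes Utp20 and Utp4 fell, the other 5 did not pass the threshold, and the windows of Nhp2, Gnl3 and Ncl, 3 of the 4 risen genes, held none (Npm1 had no window). A match is a stretch of letters, not evidence of binding. Other promoter letters, read on both strands over the whole window, were found in 24 of 32 members for GGGCGG (75.0%, against 69.1% of tested genes), 10 for CCAAT (31.2% against 43.1%) and 2 for TATAAA (6.25% against 8.77%). The 250 bases before the start are given for the genes with the largest fall and the largest rise, with any of the 4 motifs in capitals on either strand.

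Heatr1 (chr13:12395125-12395374, plus strand): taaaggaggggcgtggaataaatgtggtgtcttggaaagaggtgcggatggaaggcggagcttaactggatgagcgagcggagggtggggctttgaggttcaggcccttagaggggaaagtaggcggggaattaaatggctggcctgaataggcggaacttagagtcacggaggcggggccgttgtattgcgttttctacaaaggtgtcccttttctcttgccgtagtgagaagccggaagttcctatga
Nhp2 (chr11:51619523-51619772, plus strand): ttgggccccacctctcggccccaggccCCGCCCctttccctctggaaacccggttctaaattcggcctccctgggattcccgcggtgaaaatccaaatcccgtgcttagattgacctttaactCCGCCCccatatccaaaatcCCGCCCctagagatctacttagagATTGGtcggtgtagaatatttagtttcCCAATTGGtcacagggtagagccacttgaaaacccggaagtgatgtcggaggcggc

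Heatr1 held none of the 4 motifs in these bases, and Nhp2 held GGGCGG or its complement at 3 places and CCAAT or its complement at 3 places, with an overlap between the last pair.

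Longer genes tended to be the lower ones. The 4 genes that rose had a median coding length of 1245 bases (459 to 2121), the 13 that fell 2196 bases (1308 to 8367), and the 19 others 1584 bases (192 to 4032). Across the 36 genes, Spearman's rho between coding length and log2 fold change was −0.39, and across the 117 other pathway genes −0.41. Across 12685 tested genes with a coding length it was −0.14. The genes of a set share the same 6 libraries, so these are descriptions without a test. With a trend on coding length removed from every library, the calls for Polr1a, Polr1b, Heatr1, Utp20, Dkc1 and Bop1 as lower and for Nhp2, Npm1, Ncl and Gnl3 as higher held.

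**Figure D5:**
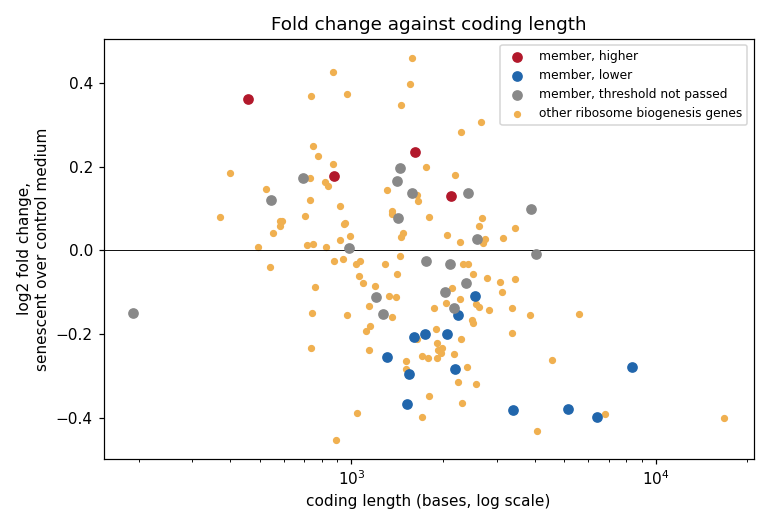
Log2 fold change (senescent over control medium, y axis) against coding length (bases, log scale, x axis) for the 36 members (large points, coloured by call) and the other pathway genes (small points). The 13 lower members lie from 1308 to 8367 bases and the 4 higher ones from 459 to 2121 bases.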

How the data were processed

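Bulk RNA-seq of 6 libraries, 3 per medium, was re-analysed, with groups and replicate numbers taken from the sample titles. The authors deposited estimated counts per Ensembl gene, not normalized. STAR, DESeq2 and mm39 are named, without a role, per the submitters' processing notes. For the counting tool, the annotation and the strand setting, nothing is stated in the sources used here. Every gene listed has at least 10 counts in sum. Of the 36 members, 10 had a fractional count in some library, so part of their reads may be shared with other features. These were Ncl and Npm1, which rose, Nop56, Bysl, Noc2l and Heatr1, which fell, and Fbl, Mybbp1a, Pes1 and Wdr12. For Heatr1 this concerned 1 library. Symbols came from GENCODE M21 (build GRCm38) by Ensembl identifier, for 18092 of 18124 genes, and because the builds differ no gene coordinates are given beside the counts.

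Counts were rounded and tested with edgeR 4.0.16 in R 4.3.3 (quasi-likelihood F-test, robust, TMM scaling, edgeR's expression filter, medium as the only term). Tests were two-sided, with Benjamini-Hochberg adjustment over 14644 genes and a threshold of 0.05. The standard error is the absolute log2 fold change over the square root of F. The procedure was first tested on simulated data. Alternatives were DESeq2 1.42.0, limma-voom (limma 3.58.1), other scalings, filters and thresholds, a replicate block and each library left out. Removal of a coding length trend (length known for 86.6% of tested genes) and of the most abundant feature was added after the data were seen. Members and lists were chosen with earlier results of these data known. Named genes were all members, the MYC network, the 4 largest rises and falls of the other pathway genes, and fixed proliferation and marker genes; genes overlapping a member, the called snoRNA host genes, Des, Acta1, Pcna, Rrm2 and Slbp, were named after their values were seen.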

Additional observations from a re-analysis of the deposited data

How the results depend on the processing

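At the threshold of 0.05, 9 of the 17 called members kept their call in all 16 alternative fits: Dkc1, Nhp2, Npm1, Polr1a, Polr1b, Utp20, Heatr1, Bysl and Bop1. Library totals changed most: 2 members were higher, 50 other pathway genes were lower, and the members' median log2 fold change was −0.169. That median was −0.0686 with upper quartile scaling, −0.0296 with the coding length trend removed, and −0.111 to −0.0593 with a library left out. At an adjusted p under 0.01, 4 members were higher and 9 lower. No pairing by replicate number was seen: deviations of same-numbered libraries correlated at 0.019, 0.002 and 0.026, against −0.046 to 0.027 for differently numbered ones. Such correlations cannot show whether isolates or batches of medium were shared. With the replicate block 4 members were higher and 13 lower, as without it, and 7402 genes were called in place of 7251. All sign changes concerned genes that were not called. Fbl was at −0.000161 with limma-voom, −0.0747 with library totals and −0.0169 with the coding length trend removed. With library totals Rrp9 was at −0.00406, Nop14 at −0.0542 and Ly6a at −0.0477. Mybbp1a was at 0.0101 with upper quartile scaling. With the coding length trend removed, Nolc1 was at 0.0235, Mybbp1a at 0.0661, Pes1 at 0.0139, Mga at 0.00207 and Ly6a at −0.0363. With a library left out, Fbl ranged over −0.0561 to 0.0947, Mybbp1a over −0.0298 to 0.00834, Rrp9 over −0.0212 to 0.179, Nop14 over −0.003 to 0.0795, Pes1 over −0.0581 to 0.0316 and Mlx over −0.139 to 0.0513. The causes were not tested. With 3 libraries per medium, within-medium variation of up to 14.0% limits what can be seen for genes of low level such as Gar1, Rrp9 and Rrp12.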
